A study of Mus musculus with 10 samples.

Results

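Aminoacyl-tRNA synthetases are the enzymes that join each amino acid to its transfer RNA. The series holds 37 of their genes among the 55858 genes of the deposited table, 20 for cytosolic and 17 for mitochondrial enzymes. They were chosen by gene name alone: a letter for the amino acid followed by "ars", with Eprs and the phenylalanine genes Farsa, Farsb and Fars2 added, and a name ending in 2 marks the mitochondrial class. All 37 passed the filter on low values.

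Gene expression was measured in 5 cKO and 5 control samples of mouse heart at postnatal day 10, numbered apart in the labels. Every animal, cKO and control, carried the alleles labelled MCM and Chmp4bF/F. The cKO animals were injected subcutaneously with tamoxifen (0.1 mg/g) on 2 days from postnatal day 0, which is meant to delete Chmp4b, a subunit of the membrane-cutting ESCRT-III complex, and the controls were given corn oil. The labels do not say which cells express the Cre, and tamoxifen itself cannot be told apart from the deletion because no tamoxifen-treated animal without the floxed allele is among the groups.

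Cytosolic synthetases supply charged tRNA to the ribosomes of the cytoplasm. The mitochondrial enzymes are mostly a separate set, also encoded in the nucleus, made in the cytoplasm and imported. They serve the ribosomes inside mitochondria, which make core subunits of the respiratory chain. The products of Gars and Kars, counted here as cytosolic, serve both compartments. In heart muscle, mitochondria fill much of the cell, and inherited defects in several mitochondrial synthetases cause cardiomyopathy in humans. Genes for many cytosolic synthetases are known targets of ATF4, the transcription factor of the amino acid and integrated stress response.

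Values are in TPM, which corrects for gene length and closes each library to 1000000. Mitochondrially encoded transcripts took 39.4 ± 2.34% of TPM in cKO libraries and 55.4 ± 3.96% in control libraries (SD, n = 5 each), and the median of the 13282 genes tested lay 0.63 above 0 (log2, cKO minus control) in TPM as deposited. TPM was therefore also divided by a median-of-ratios factor for each library, and values on that scale are called relative to the median gene. On that scale limma, with a Benjamini-Hochberg adjusted p under 0.05, called 20.8% of genes higher and 20.8% lower in cKO hearts, and as deposited 76.5% higher and 3.46% lower. Chmp4b averaged 29.3 ± 1.37 in cKO hearts and 60.5 ± 6.47 in controls relative to the median gene (SD, n = 5 each; exact two-sided permutation p = 0.00794, the smallest that 5 against 5 libraries allow). As deposited, Chmp4b averaged 38.2 ± 1.42 TPM in cKO hearts and 47.4 ± 8.61 TPM in controls, and the groups overlapped. Xist RNA was present in 3 cKO libraries and 0 control libraries, so sex differed between the groups. Counts of called members are therefore also given from a fit with the Y-linked gene Ddx3y as covariate and from the male libraries alone (2 cKO, 5 control).

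Stretches of the start regions are shown because they hold the letter patterns that ATF4 and a factor of mitochondrial genes are known to bind. Windows from 250 bases before to 50 bases after the annotated start (RefSeq, GRCm38.p6) were matched for 13 cytosolic and 14 mitochondrial genes. Nars, Cars, Rars, Vars, Hars, Lars and Wars were not matched and not searched. The same holds for the mitochondrial genes outside the 14, Hars2 and Pars2 among them. The pattern searched was TGATGNAA, the core of the C/EBP-ATF response element to which ATF4 binds, on both strands. It was found in 5 of the 13 cytosolic genes searched (Aars, Yars, Tars, Gars and Iars) and 0 of 14 mitochondrial genes, against 4.51% of all 27025 genes with a window. A second pattern, GCATGCGC, part of the site of nuclear respiratory factor 1, was found in 0 of 13 cytosolic and 3 of 14 mitochondrial genes (Rars2, Wars2 and Vars2), against 3.05% of all genes, again on both strands. No member that was searched held both patterns. These matches describe letters only. In the stretches below, 1 for each match that is shown, read 5′ to 3′ along the gene, capitals mark the match. The first base of its match lies at position 9 in Aars, 3 in Yars, -15 in Tars, -30 in Gars, 7 in Iars, -51 in Rars2, -64 in Wars2 and -46 or -20 in Vars2, counted from the annotated start as 0.
Aars, chr8:111033840-111033869, plus strand: agcgggtcactTTTCATCAgagcgctctga
Yars, chr4:129189895-129189924, plus strand: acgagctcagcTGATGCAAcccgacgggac
Tars, chr15:11399655-11399684, minus strand: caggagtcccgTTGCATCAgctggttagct
Gars, chr6:55037960-55037989, plus strand: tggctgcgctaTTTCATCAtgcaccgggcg
Iars, chr13:49682126-49682155, plus strand: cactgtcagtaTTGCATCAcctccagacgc
Rars2, chr4:34614895-34614924, plus strand: cggccccgtgtGCATGCGCactccacactt
Wars2, chr3:99141015-99141044, plus strand: ccagaggacagGCGCATGCgtagtaagcac
Vars2, chr17:35667620-35667649, minus strand: gagtcttttacGCATGCGCctgcgtgtccc
Vars2, chr17:35667594-35667623, minus strand: tccccgcccacGCATGCGCgcgcacctcgc

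The levels of the classes overlapped. Among cytosolic genes, Sars (serine) was the highest at 76.1 ± 5.67 TPM in cKO hearts and 41.2 ± 4.30 TPM in controls (SD, n = 5 each). Nars (asparagine) followed in cKO hearts at 66.2 ± 5.47 TPM and Kars (lysine), whose product serves both compartments, in control hearts at 33.0 ± 3.88 TPM. Qars (glutamine), at 49.9 ± 2.56 TPM in cKO hearts and 30.4 ± 6.53 TPM in controls, lay within the SD of Kars in control hearts. Farsa, the catalytic subunit of the phenylalanine enzyme, was the lowest in cKO hearts at 16.2 TPM, and Cars (cysteine) in control hearts at 8.47 ± 0.940 TPM. Leaving aside Lars2, the mitochondrial genes ran from Mars2 (methionine) at 1.69 ± 0.171 TPM in cKO hearts and 1.42 ± 0.241 TPM in controls to Rars2 (arginine) at 26.9 ± 5.95 TPM in cKO hearts and 15.3 ± 3.45 TPM in controls. Lars2 (leucine) stood far above them at 155 ± 53.0 TPM in cKO hearts and 74.3 ± 11.3 TPM in controls.

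Log2 differences of cytosolic synthetases (cKO minus control, relative to the median gene) lay near or slightly above 0, and those of mitochondrial ones mostly below 0. Relative to the median gene, 5 of 20 cytosolic genes rose, 0 fell and 15 were not called, against a background of 20.8% of tested genes called higher. The 25% of members called higher is near that background. Of the 17 mitochondrial genes 0 rose, 7 fell and 10 were not called, which is 41.2% lower against a background of 20.8%. The median log2 difference was 0.11 over the cytosolic genes, -0.25 over the mitochondrial genes and 0.01 over all tested genes. As deposited, 20 of 20 cytosolic and 10 of 17 mitochondrial genes were called higher and 0 of either class lower, against 76.5% and 3.46% of all tested genes, with medians of 0.82 and 0.38 against 0.63. The direction of the mitochondrial genes depends on the scale. On both scales the median of the mitochondrial genes lay below that of the cytosolic genes. Scaling shifts all genes of a library by nearly the same amount, so it could hardly change that order. Finding the order on both scales is therefore no separate check of it. With Ddx3y as covariate 3 cytosolic genes rose (Nars, Cars and Rars), 15% against a background of 12.4%, and 3 mitochondrial genes fell (Aars2, Fars2 and Tars2), 17.6% against 13.4%, so both shares were near the background in that fit. In male libraries 4 cytosolic genes rose (Nars, Rars, Vars and Cars), 20% against 11.4%, and 4 mitochondrial genes fell (Aars2, Fars2, Tars2 and Vars2), 23.5% against 14.8%, while Lars2 rose.

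**Figure D1:**
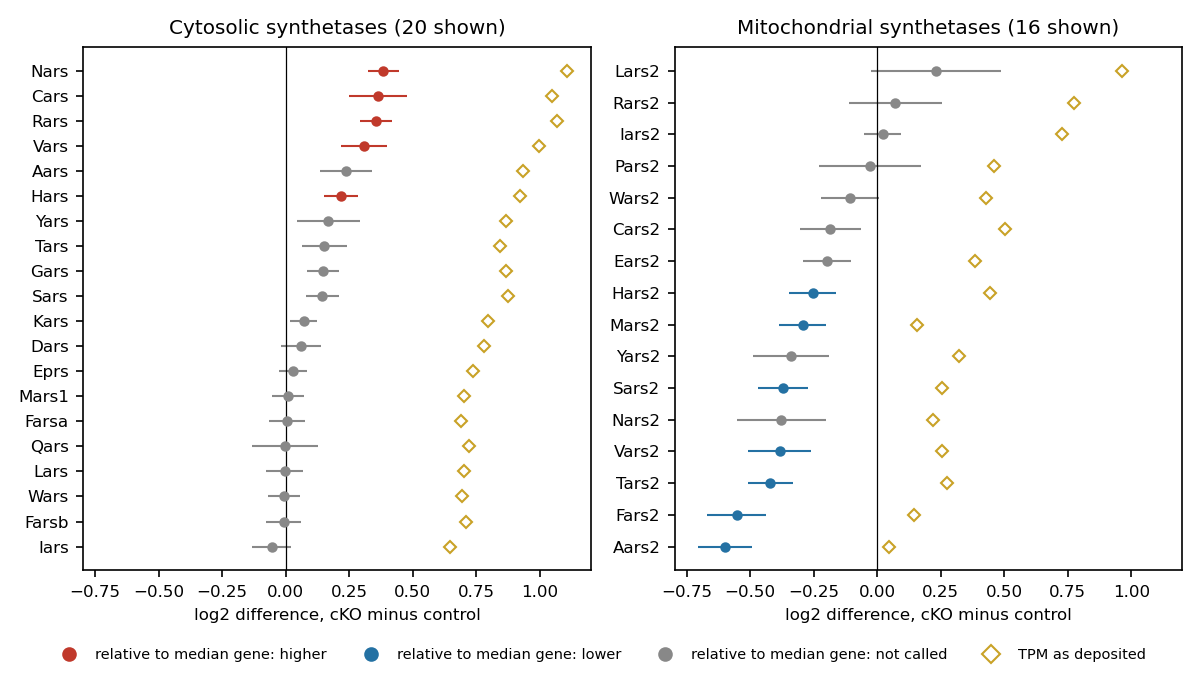
Log2 difference between 5 cKO and 5 control hearts for the 20 cytosolic (left) and 16 of the 17 mitochondrial (right) synthetase genes. Circles with bars are limma estimates ± SE relative to the median gene, coloured by call, and open diamonds are TPM as deposited; the 5 called cytosolic genes lie right of 0 and the 7 called mitochondrial genes left of it, while the diamonds of both classes lie right of 0.

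Markers of cell types moved in the same hearts. Over all tested genes 20.8% were called higher and 20.8% lower relative to the median gene, and 76.5% and 3.46% as deposited. As deposited, the counts of fibroblast and of smooth muscle and pericyte markers called higher were near or under that share. Relative to the median gene, 9 of 9 cardiomyocyte markers fell (summed level 25531 to 32749 in cKO and 49036 to 52116 in control libraries), as did 11 of 12 endothelial markers (816 to 1118 in cKO and 1417 to 1681 in control libraries). As deposited 3 cardiomyocyte markers were called lower and 0 higher, and 0 endothelial markers lower and 2 higher. On both scales 16 of 16 tested macrophage markers, of 17 listed, rose (465 to 672 in cKO and 142 to 163 in control libraries), and so did 7 of 9 fibroblast markers (1391 to 1713 in cKO libraries, 928 to 1102 in controls). The other 2 fibroblast markers fell relative to the median gene. Of 8 smooth muscle and pericyte markers 2 rose and 3 fell (685 to 961 in cKO and 663 to 749 in control libraries), and as deposited 5 were called higher and 0 lower. Of 4 tested erythroid markers (747 to 4013 in cKO and 2417 to 4168 in control libraries) and 2 tested neutrophil markers (9.24 to 32.3 in cKO libraries, 7.54 to 29.0 in controls; Elane at 0 throughout) none was called, and as deposited 1 neutrophil marker was called higher. The 8 lymphocyte markers were too low to test (2.88 to 5.13 in cKO and 1.82 to 2.69 in control libraries). Their part in the synthetase values was not tested, and in bulk heart RNA fewer cells of a type and less RNA per cell cannot be told apart.

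Asparagine, arginine, cysteine, valine and histidine enzymes made up the cytosolic genes that rose. Values by library are given in the order of cKO replicates 1, 3, 5, 6 and 7 and control replicates 4, 6, 8, 9 and 13. Nars had 51.1, 51.0, 52.2, 47.7 and 51.5 relative to the median gene in cKO hearts, against 40.7, 38.6, 37.1, 35.1 and 42.1 in control hearts. All 5 cKO libraries lay above all 5 control libraries, and limma gave a log2 difference of 0.38 ± 0.06 (SE, adjusted p = 0.000389). Rars, the arginine enzyme of the multi-tRNA synthetase complex (chromosome 11, 35808381 to 35834506, minus strand, GRCm38), had 28.2, 24.1, 28.3, 26.2 and 28.5 in cKO hearts, against 20.9, 19.9, 21.3, 21.8 and 20.6 in control hearts. Its groups did not overlap either, with a log2 difference of 0.36 ± 0.06 (SE, limma adjusted p = 0.000762). Nars and Rars were the 2 of 20 cytosolic members without overlap on this scale, a share under the 31.3% of all tested genes that had none. As deposited 20 cytosolic and 6 mitochondrial members had none, against 64.4% of all tested genes.

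Cars (chromosome 7, 143557230 to 143600090, minus strand) had 16.1, 17.3, 13.03, 13.6 and 11.7 relative to the median gene in cKO hearts, against 13.2, 10.1, 10.9, 9.39 and 10.8 in control hearts. Control replicate 4 lay above 2 cKO libraries, and the log2 difference was 0.36 ± 0.11 (SE, limma adjusted p = 0.0236). Vars, the valine enzyme (chromosome 17, 35000987 to 35016322, plus strand), had 13.2, 14.1, 16.3, 14.8 and 12.2 in cKO hearts, against 11.1, 10.01, 13.01, 11.4 and 10.4 in control hearts. Control replicate 8 reached into the cKO range, and the log2 difference was 0.31 ± 0.09 (SE, limma adjusted p = 0.0165). Hars, the histidine enzyme, had 21.4, 22.4, 23.1, 19.02 and 22.4 in cKO hearts, against 16.9, 19.1, 19.2, 18.5 and 18.8 in control hearts. Only cKO replicate 6 fell within the control range, and the log2 difference was 0.22 ± 0.07 (SE, limma adjusted p = 0.0219). Leaving out single libraries kept the calls of Nars, Rars and Vars in 10 of 10 fits. The call of Cars was lost without cKO replicate 1 or 3 or control replicate 6 or 9 (log2 differences 0.32, 0.30, 0.34 and 0.32, limma adjusted p from 0.0508 to 0.0587). That of Hars was lost without cKO replicate 5 or control replicate 4 (0.19 for each, limma adjusted p = 0.0562 and 0.0561).

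None of the other 15 cytosolic genes was called. Those with the larger estimates were Aars (alanine, 0.24 ± 0.10, limma adjusted p = 0.0869), Yars (tyrosine, 0.17 ± 0.12), Tars (threonine, 0.15 ± 0.09), Gars (glycine, 0.14 ± 0.06, limma adjusted p = 0.0872) and Sars (0.14 ± 0.07), each as log2 difference ± SE. Iars, Wars, Lars, Farsa, Farsb, Qars, Mars1, Eprs, Dars and Kars, the remaining 10, lay between -0.06 and 0.07. Wars, the gene of the tryptophan enzyme, whose human counterpart is induced by interferon gamma, averaged 17.6 ± 1.12 in cKO hearts and 17.7 ± 0.937 in controls relative to the median gene (SD, n = 5 each), with a 95% interval of the log2 difference from -0.13 to 0.12. The 5 genes with the ATF4-type letters in their start region had log2 differences of 0.24 (Aars), 0.17 (Yars), 0.15 (Tars), 0.14 (Gars) and -0.06 (Iars). The 5 cytosolic genes that rose were not among those searched, so the letters cannot be set against the calls.

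Several cytosolic synthetases sit together in the multi-tRNA synthetase complex, held by non-catalytic scaffold proteins. Of the 8 member enzymes (Eprs, Iars, Lars, Qars, Mars1, Kars, Rars and Dars), Rars alone was called, with a median log2 difference of 0.02. Of the 12 enzymes outside the complex 4 were called higher, with a median of 0.16. The shares called higher were 12.5% in the complex and 33.3% outside it, against 20.8% of all tested genes. Among the scaffolds, Eef1e1 rose (8.35 ± 1.51 in cKO hearts, 5.29 ± 0.947 in controls, SD, n = 5 each; limma adjusted p = 0.00419). Aimp1 had a log2 difference of 0.13 and Aimp2 of -0.02, neither called. As deposited 3 of 3 scaffolds were called higher, against 76.5% of all tested genes.

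Alanine, phenylalanine, threonine, valine and serine enzymes led the mitochondrial genes that fell relative to the median gene. Aars2 (chromosome 17, 45506841 to 45520843, plus strand) had 4.77, 5.68, 5.64, 5.50 and 5.06 in cKO hearts, against 8.97, 6.91, 7.54, 10.8 and 9.14 in control hearts. Every cKO library lay below every control library, and the log2 difference was -0.60 ± 0.11 (SE, limma adjusted p = 0.000842). In TPM as deposited Aars2 averaged 6.94 ± 0.561 TPM in cKO hearts, against 6.72 ± 1.04 TPM in controls, and was not called (limma adjusted p = 0.688). Tars2 (chromosome 3, 95739976 to 95760206, minus strand) had 11.2, 12.3, 14.1, 15.8 and 13.5 in cKO hearts, against 20.0, 17.6, 18.2, 16.99 and 17.9 in control hearts. Its groups did not overlap, with a log2 difference of -0.42 ± 0.09 (SE, limma adjusted p = 0.00244). Aars2, Tars2 and Mars2 were the 3 of 17 mitochondrial members without overlap on this scale, a share under the 31.3% of all tested genes. Fars2 (chromosome 13, 36117412 to 36726280, plus strand) had 11.3, 11.1, 12.0, 13.3 and 17.8 in cKO hearts, against 17.6, 19.6, 19.5, 18.9 and 21.6 in control hearts. Replicate 7 was the 1 cKO library within the control range, and the log2 difference was -0.55 ± 0.12 (SE, limma adjusted p = 0.00244).

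Sars2 (chromosome 7, 28741992 to 28753871, plus strand) had 4.10, 4.45, 4.06, 4.53 and 5.62 relative to the median gene in cKO hearts, against 6.48, 5.15, 5.98, 6.09 and 7.14 in control hearts. The groups overlapped at cKO replicate 7 above control replicate 6, and the log2 difference was -0.37 ± 0.10 (SE, limma adjusted p = 0.0107). Vars2 (chromosome 17, 35655634 to 35667592, minus strand) had 7.30, 5.29, 4.604, 5.14 and 4.15 in cKO hearts, against 7.97, 7.48, 6.07, 6.64 and 7.51 in control hearts. Replicate 1 was the 1 cKO library inside the control range, and the log2 difference was -0.38 ± 0.12 (SE, limma adjusted p = 0.0272). Mars2 had a log2 difference of -0.29 without overlap between groups (limma adjusted p = 0.0238), and Hars2 of -0.25 (limma adjusted p = 0.0457). Aars2, Tars2, Fars2 and Sars2 stayed called in 10 of 10 fits with a library left out. Vars2 stayed called in 4, and was not called without cKO replicate 5, 6 or 7 or control replicate 4, 6 or 13 (limma adjusted p from 0.0510 to 0.0664). Mars2 stayed called in 7, and was not called without cKO replicate 5 or 7 or control replicate 9 (limma adjusted p from 0.0543 to 0.0619). Hars2 stayed called in 3, and was not called without cKO replicate 1, 3, 5 or 6 or control replicate 4, 8 or 13 (limma adjusted p from 0.0604 to 0.115).

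**Figure D2:**
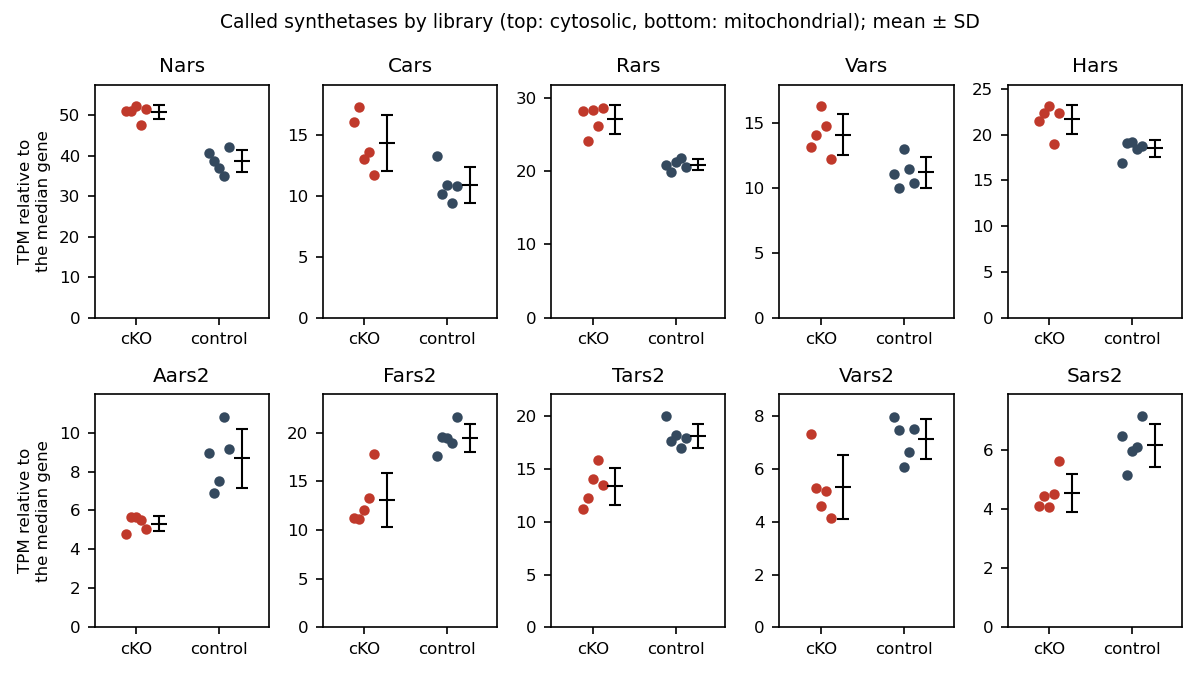
TPM relative to the median gene in each library for the 5 cytosolic genes called higher (top) and the 5 mitochondrial genes with the largest called falls (bottom), cKO left and control right of it, with mean ± SD (n = 5 each) in black. Nars, Rars, Aars2 and Tars2 have no overlap between groups, which also holds for 31.3% of all tested genes. In Fars2 cKO replicate 7, at 17.8, reaches the control range.

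Of the 10 mitochondrial genes that were not called, several had log2 differences below 0 and 3 lay near 0. Nars2 (-0.38 ± 0.17), Yars2 (-0.34 ± 0.15), Ears2 (glutamate, -0.20 ± 0.09), Cars2 (-0.19 ± 0.12) and Wars2 (-0.11 ± 0.11) had negative log2 differences (± SE). Pars2 (proline, -0.03 ± 0.20), Iars2 (isoleucine, 0.02 ± 0.07) and Rars2 (0.07 ± 0.18) lay near 0. The mitochondrial genes of the class II catalytic fold had a median of -0.37 with 5 of 8 called lower, and those of the class I fold a median of -0.19 with 2 of 9 called lower. These shares, 62.5% and 22.2%, stand against 20.8% of all tested genes called lower. Among cytosolic genes the class II median was 0.14 with 2 of 10 called higher, and the class I median 0.01 with 3 of 9 called higher. Here the shares were 20% and 33.3%, against 20.8% of all tested genes called higher.

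Lars2 (chromosome 9, 123366927 to 123462666, plus strand) had the highest level of its class and the widest spread between cKO libraries. Its values were 138, 128, 110, 164 and 52.8 relative to the median gene in cKO hearts, against 89.9, 72.4, 99.6, 109 and 108 in control hearts. In 4 cKO libraries it was above every control library, and in cKO replicate 7 below every one. The log2 difference was 0.23 ± 0.26 (SE, limma adjusted p = 0.508), and without cKO replicate 7 it was 0.50 (limma adjusted p = 0.0157). Rn18s-rs5, a row for an 18S ribosomal RNA copy, had 443, 371, 631, 1871 and 485 TPM in cKO hearts. In control hearts it had 177, 233, 225, 206 and 297 TPM. AY036118, another row shown for comparison with Lars2 and not for its position, had 182, 130, 119, 91.7 and 183 TPM in cKO hearts. Its values in control hearts were 144, 235, 151, 122 and 121 TPM. The part of either row in the Lars2 values was not tested. Summed over all 17 members, the mitochondrial genes came to 194 to 311 relative to the median gene in cKO libraries and 230 to 277 in control libraries. These sums overlapped between the groups. Without Lars2 the mitochondrial sum was 125.1 to 147 in cKO libraries and 156 to 169 in control libraries. The cytosolic genes summed to 504 to 528 in cKO libraries and 459 to 481 in control libraries. The cytosolic sum and the mitochondrial sum without Lars2 did not overlap between the groups. Of single tested genes 31.3% had no overlap, but a sum over many genes is not comparable with a single gene. The share among sums of other genes was not computed, and Lars2 was named after its values were seen.

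**Figure D3:**
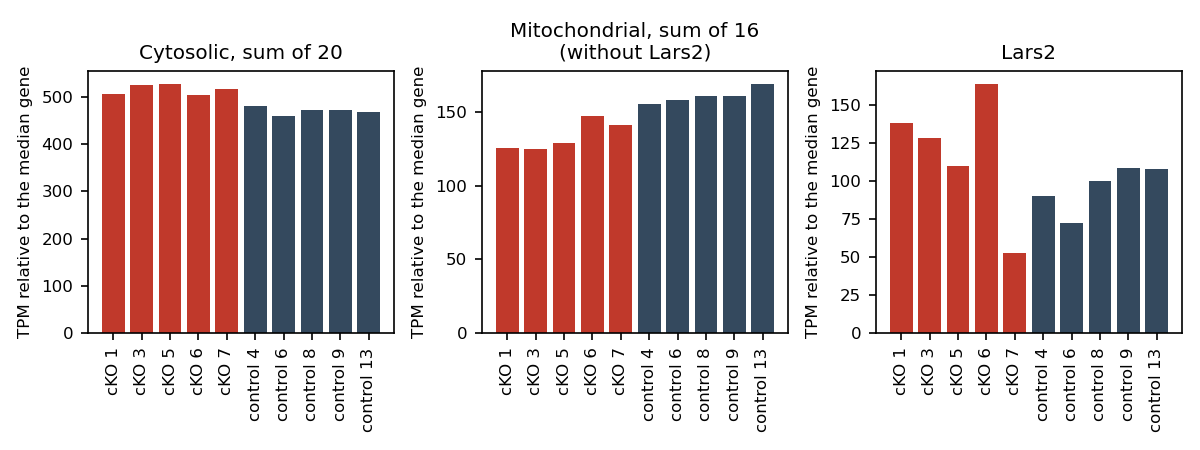
TPM relative to the median gene in each library (red, cKO; dark, control), summed over the 20 cytosolic genes (left) and the 16 mitochondrial genes other than Lars2 (middle), and for Lars2 alone (right). The cKO sums are higher for cytosolic genes and lower for mitochondrial genes without Lars2, while mitochondrial sums that include Lars2 overlap between groups. Lars2 is lowest in cKO replicate 7 at 52.8.

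The question of balance between the compartments can be put to each amino acid that has a separate enzyme in each. The TPM ratio of the cytosolic to the mitochondrial gene within a library is the same under every scaling. In 15 of 17 pairs the mean log2 ratio was higher in cKO than in control hearts, with a median difference of 0.50. In 10 pairs the unadjusted exact two-sided permutation p was under 0.05, all with a higher ratio in cKO hearts, and in 7 pairs the groups did not overlap. The share of such ratios among other pairs of genes was not computed, and 31.3% of single genes had no overlap relative to the median gene. The 17 pairs share libraries, and Eprs stands in both the glutamate and the proline pair, so they are not independent.

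Aars/Aars2 had the largest difference, with ratios of 3.77, 3.02, 3.06, 2.99 and 2.81 in cKO hearts, against 1.41, 1.72, 1.70, 1.56 and 1.74 in control hearts. No cKO ratio reached the control range, and the difference was 0.94 on the log2 scale, a 1.92-fold higher ratio (exact permutation p = 0.00794). Nars/Nars2 had 12.9, 24.0, 15.1, 10.5 and 11.3 in cKO hearts, against 6.45, 6.09, 9.42, 7.50 and 9.98 in control hearts. The groups again did not overlap, and the log2 ratio was 0.87 higher in cKO hearts (exact permutation p = 0.00794). For Vars/Vars2 the ratios were 1.81, 2.66, 3.54, 2.88 and 2.95 in cKO hearts, against 1.39, 1.34, 2.14, 1.72 and 1.39 in control hearts, with cKO replicate 1 inside the control range. Its log2 difference was 0.78 (exact permutation p = 0.0159). Tars/Tars2 had 1.19, 1.18, 0.930, 0.989 and 0.987 in cKO hearts, against 0.627, 0.614, 0.615, 0.863 and 0.750 in control hearts, without overlap and 0.61 higher on the log2 scale (exact permutation p = 0.00794).

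Nor did the phenylalanine, serine, histidine and methionine pairs overlap, with log2 ratios higher by 0.49 to 0.59 (exact permutation p = 0.00794 for each). The pairs Cars/Cars2 (0.59) and Yars/Yars2 (0.56) reached an exact permutation p = 0.0317 each. That of Cars/Cars2 was lost without cKO replicate 1 or 3 or control replicate 6, 9 or 13 (exact permutation p from 0.0556 to 0.0714), and that of Yars/Yars2 without control replicate 4, 6 or 8 (exact permutation p = 0.0635 for each). Arginine (0.30), glutamate (0.28), tryptophan (0.14) and proline (0.04) pairs had higher ratios in cKO hearts but did not reach the threshold, with exact permutation p from 0.0635 to 0.929. Iars/Iars2 (-0.08, exact permutation p = 0.357) and Lars/Lars2 (-0.24, exact permutation p = 0.524) had lower ratios in cKO hearts, also within the spread. In the 2 cKO libraries without Xist against the 5 control libraries, all male, 14 of 17 ratios were higher and 9 reached an exact permutation p = 0.0476, the smallest that 21 splits allow.

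**Figure D4:**
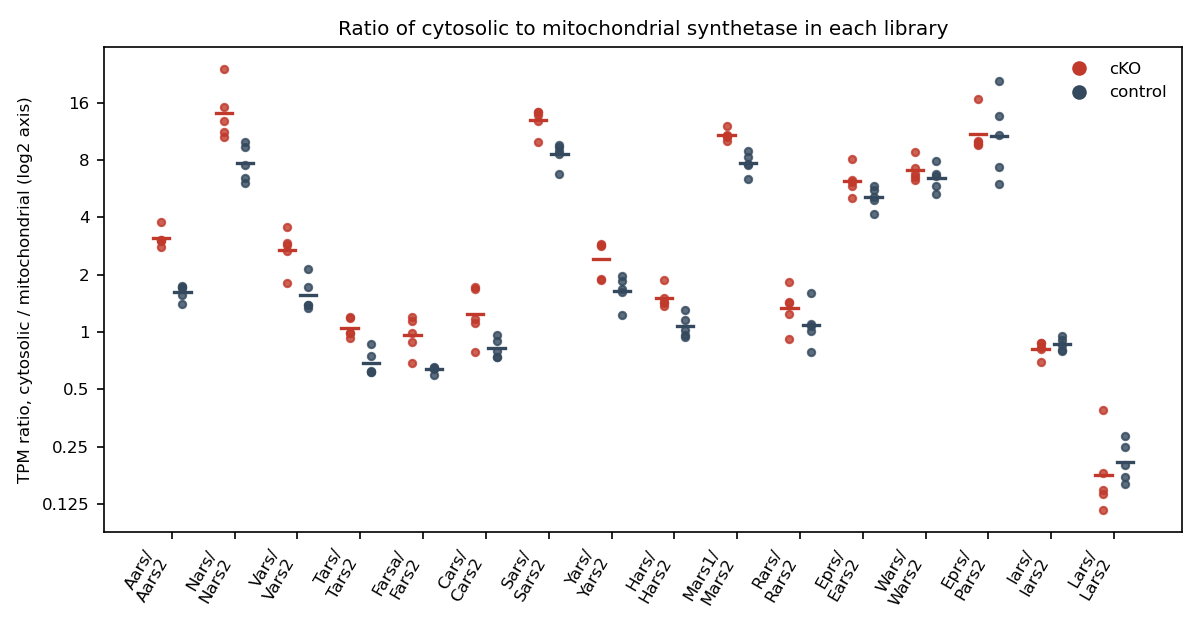
TPM ratio of the cytosolic to the mitochondrial gene in each library (points; log2 axis) with the geometric mean of each group (lines) for 16 of the 17 pairs, cKO left and control right within each pair, sorted by the difference between groups. Ratios are separated between groups in 7 pairs, most in Aars/Aars2, and overlap in Eprs/Pars2, Iars/Iars2 and Lars/Lars2.

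Relative to the median gene, the charging partners of the mitochondrial enzymes were lower or uncalled. The counts below stand beside 20.8% of all tested genes called higher and 20.8% lower on that scale. As deposited those shares were 76.5% and 3.46%. Mitochondria make glutaminyl-tRNA through the amidotransferase GatCAB, and its genes Qrsl1 and Gatc fell (log2 differences -0.91 and -0.21, limma adjusted p = 1.92e-06 and 0.0362), while Gatb stood at 0.01 and the formyltransferase gene Mtfmt at -0.08, both uncalled. As deposited Qrsl1 was again called lower and the other 3 higher, and 1 of the 4 was called lower with the Ddx3y covariate, in male libraries, with no filter, with upper-quartile scaling, or without cKO replicate 1, 3, 5 or 7 or control replicate 4, 8, 9 or 13. Translation factors of mitochondria fell in 6 of 11 genes and rose in 0, with a median of -0.31, while as deposited 6 were called higher and 1 (Tufm) lower. The elongation factor gene Tufm, whose product carries charged tRNA to the mitochondrial ribosome, averaged 61.1 ± 9.99 in cKO hearts and 122 ± 3.16 in controls relative to the median gene (SD, n = 5 each; limma adjusted p = 8.9e-06). Tsfm, its exchange factor, fell by 0.71, Gfm1 by 0.66 and the initiation factor gene Mtif2 by 0.79. Of 13 genes that mature mitochondrial tRNA 1 rose (Gtpbp3, 0.25), 2 fell (Trmt5, -1.22, and Hsd17b10, -0.61) and 10 were not called, with a median of -0.09, while as deposited 11 were called higher and 1 (Trmt5) lower. The call of Gtpbp3 was lost without cKO replicate 3 or 6.

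On the cytosolic side, 3 of 7 elongation factor genes rose relative to the median gene and 1 fell, with a median of 0.16, and as deposited 7 of 7 were called higher. Over all tested genes 20.8% were called higher and 20.8% lower relative to the median gene, and 76.5% and 3.46% as deposited. The count of elongation factor genes called higher was 1 in the male libraries, with the Ddx3y covariate, with no mean-variance trend, or without cKO replicate 3, 5 or 7 or control replicate 4, 8 or 13. Eef1a1, which carries charged tRNA to the ribosome, averaged 2202 ± 128 in cKO hearts and 1535 ± 113 in controls relative to the median gene (SD, n = 5 each; limma adjusted p = 0.000202). Its muscle-enriched form Eef1a2 averaged 231 ± 11.8 in cKO hearts and 279 ± 16.2 in controls (limma adjusted p = 0.00404). Of 9 other cytosolic charging factors 0 rose and 2 fell, Pstk, a kinase of selenocysteine tRNA synthesis (-1.22, limma adjusted p = 5.37e-06), and the threonyl-tRNA synthetase-like gene Tarsl2 (-0.84, limma adjusted p = 9.55e-05), with a median of -0.05, while as deposited 7 were called higher and 1 (Pstk) lower. The counts of these factors called lower, and called higher as deposited, were near the shares of all tested genes.

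Genes of the ATF4 response went in both directions. Of 24 tested genes, of 27 listed, 3 rose, 6 fell and 15 were not called relative to the median gene, with a median of 0.02, and as deposited 19 were called higher and 2 lower. Of all tested genes 20.8% were called higher and 20.8% lower relative to the median gene, and 76.5% and 3.46% as deposited. The counts of this list were near those shares. Without control replicate 9 the count called higher was 5, with no filter on low values 2 rose and 3 fell, and with TPM over genes other than mitochondrially encoded ones 11 rose and 3 fell. Gdf15, which encodes a stress-induced secreted factor, averaged 23.0 ± 5.72 in cKO hearts and 1.01 ± 0.385 in controls (SD, n = 5 each; limma adjusted p = 1.11e-07). Slc7a5, a transporter gene for large neutral amino acids, rose by 0.62 on the log2 scale (limma adjusted p = 0.000975). Atf3, a transcription factor gene of the same response, fell by 1.68 (limma adjusted p = 7.59e-06), and Slc7a1, a transporter gene for cationic amino acids, fell by 1.01 (limma adjusted p = 1.31e-05). Atf3 and Slc7a1 were also called lower as deposited. Atf4 itself had 54.1 ± 2.89 in cKO hearts, against 55.3 ± 3.76 in controls (limma adjusted p = 0.75). Of 8 eIF2 kinases and sensors 0 rose and 2 fell, Dele1 (-0.84) and Oma1 (-0.35), whose products in human cells relay mitochondrial stress to the cytosol. As deposited 7 of these 8 were called higher, Oma1 among them. Counts of 1 or 2 higher came with upper-quartile scaling, a pseudocount of 0.1, a mean TPM of at least 5, no mean-variance trend or array weights, and without cKO replicate 7 or control replicate 8, 9 or 13.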

How the data were processed

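RNA from hearts (1 μg per library with a VAHTS kit, per the labels' protocols) was sequenced in 5 cKO and 5 control libraries, grouped by sample title. The authors deposited TPM per gene. The submitters' processing notes name, with no order, DESeq2 1.22.2, HTSeq 0.11.2, Picard 1.96, STAR 2.7.1, FastQC 0.11.7, Trimmomatic 0.32 and bcl2fastq, and the build mm10. The annotation release, gene lengths and strandedness are not given in the sources used here. TPM keeps no depth, so no counting interval is given. The labels number the hearts but do not state that each library is a separate animal, so p-values measure the spread between these samples. No 2 libraries held identical values.

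Genes with at least 1 TPM in at least 5 libraries (13282 of 55858) were tested on log2(value + 1), which understates changes of low genes, with limma 3.58.1 in R 4.3.3 (mean-variance trend, two-sided, Benjamini-Hochberg adjusted p under 0.05 over all tested genes). TPM was divided by median-of-ratios factors from 16393 genes, and TPM as deposited was the alternative. Intervals are the estimate ± 1.96 SE. Ratios of 2 genes used TPM with no pseudocount and an exact permutation test. The limma fit was also run on simulated independent normal values with far fewer changed genes than were called here. That setting does not test the shared scaling and is no support for the calls. Positions are from GENCODE M21 (GRCm38, also called mm10), which matched 37 of 37 members by gene ID without its version. In 10 members a protein-coding gene on the other strand overlaps (Hars with Hars2, and Mars1 with Ddit3, among them), and without strand their reads cannot be told apart. Python 3.11.15, numpy 2.4.6, pandas 2.3.3 and matplotlib 3.10.9 handled tables and figures.

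Members and lists were chosen with earlier results of these data known. Values in every library are given for the 5 called members of each class with the largest change in each direction and for the 4 pairs with the largest difference of ratios, and up to 4 called genes of each other list are named. Lars2, uncalled genes, and Atf4 were named after their values were seen. Alternatives were other scalings, pseudocounts, filters, variance models, library weights, a Ddx3y covariate for sex and leaving out each library. The fit on male libraries was added after seeing the data. The separate values of 1 mitochondrial member, which stays in the counts, and some matched stretches are not reported here.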

Additional observations from a re-analysis of the deposited data

Results flagged for a closer look

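In 8 of 110 groups of 5 libraries examined (37 members and Chmp4b relative to the median gene, and 17 ratios, in each group) the highest or lowest library stood apart from the other 4, where chance gives about 1 in 20. Among single genes, Pars2 was 1.30 in cKO replicate 1 (the next 1.97), Nars was 47.7 in cKO replicate 6 (the next 51.0) and Yars was 21.5 in control replicate 9 (the next 16.05). Among ratios, Aars/Aars2 was 3.77 (the next 3.06) and Eprs/Pars2 16.7 (the next 10.04) in cKO replicate 1. Hars/Hars2 was 1.87 in cKO replicate 5 (the next 1.501), Lars/Lars2 was 0.391 in cKO replicate 7 (the next 0.182) and Farsa/Fars2 was 0.597 in control replicate 8 (the next 0.641).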

How the results depend on the processing

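Counts below are called higher and lower. TPM as deposited gave 10160 and 460 over all genes, 20 and 0 cytosolic, and 10 and 0 mitochondrial. TPM over genes other than mitochondrially encoded ones gave 6066 and 1388 over all genes, 18 and 0 cytosolic, and 1 and 2 mitochondrial, with a median of 0.28 over all genes. The Ddx3y covariate gave 1641 and 1774, 3 and 0 cytosolic, and 0 and 3 mitochondrial. Male libraries gave 1392 and 1803, 4 and 0 cytosolic, and 1 (Lars2) and 4 mitochondrial. With no filter 4 mitochondrial genes were lower. Without single libraries the mitochondrial counts were 0 to 1 higher (Lars2 without cKO replicate 7) and 4 to 6 lower (4 without cKO replicate 5), the cytosolic 4 to 6 higher, and ratios with an unadjusted p under 0.05 numbered 8 to 11. The other alternatives for all genes and both classes, and those for ratios and Chmp4b, stayed within 1.5 times or kept their call. Pseudocount 1 gave 13 such ratios.

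Direction turned with scaling. As deposited, all 37 members lay above 0 and the mitochondrial median was 0.38, and log2 differences of those that turned included 0.047 (Aars2), 0.14 (Fars2), 0.15 (Mars2), 0.22 (Nars2), 0.25 (Sars2 and Vars2), 0.28 (Tars2), 0.32 (Yars2), 0.38 (Ears2), 0.43 (Wars2), 0.44 (Hars2), 0.46 (Pars2), 0.50 (Cars2), 0.64 (Iars), 0.69 (Wars), 0.70 (Lars), 0.71 (Farsb) and 0.72 (Qars). Without mitochondrially encoded genes in the total, the median was 0.025, and those that turned included Hars2 (0.025), Ears2 (0.037), Cars2 (0.090), Wars2 (0.12), Pars2 (0.21), Iars (0.23), Farsb, Wars and Lars (0.28 each) and Qars (0.29). That total also gave 3 and 0 scaffolds, 5 and 2 other cytosolic charging factors, 0 and 1 mitochondrial charging partners, 6 and 0 cytosolic elongation factors, 5 and 2 tRNA maturation genes, and 4 and 1 eIF2 kinases and sensors. Scaling shifts all genes by 1 amount per library, so it sets these signs by its construction. Nars, Rars, Aars2, Fars2 and Tars2 kept direction and call in every alternative run except TPM as deposited (Aars2, Fars2, Tars2) and the total without mitochondrially encoded genes (Tars2). No paired analysis was possible because the groups share only replicate number 6. Depth is unknown, and Mars2 and Pars2, under 3 TPM on average in both groups, are the lowest members.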
